A study of Mus musculus with 11 samples.

Results

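The 10 genes described here encode the sensors and the transcription factors of the unfolded protein response, together with a pair of genes that these factors switch on and that feed back on the pathway: *Eif2ak3*, *Ern1*, *Atf6*, *Creb3l2*, *Xbp1*, *Atf4*, *Ddit3*, *Atf3*, *Trib3* and *Ppp1r15a*. They were taken by gene name from a count table of 24849 genes, each had 1 entry in that table, and all 10 passed the filter on low counts in every comparison. The RNA came from AML12, an alpha mouse liver 12 line of hepatocytes that were immortalized from a mouse carrying a human TGF-alpha transgene, and which is grown with dexamethasone, insulin, transferrin and selenium. Polyadenylated RNA was sequenced from 4 KO libraries, 3 WT libraries and 4 KI libraries. The KO cells carry a CRISPR/Cas9 break in the gene of TXNDC5, a thioredoxin-like oxidoreductase of the endoplasmic reticulum (ER), with a puromycin resistance gene recombined into it. They were selected with puromycin, and the sources used here do not say whether they are 1 clone, while the labels call their genotype "TXNDC5 Knockdown". The KI cells carry TXNDC5 for overexpression at the ROSA26 locus, with no promoter given in the sources used here, and the WT cells are unedited. No ER stress agent is named for any library. Nothing in the labels says that the replicates were separate cultures, so the p-values measure only the spread between these libraries, which may be technical.

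The unfolded protein response is the program by which a cell answers an overload of unfolded protein in the ER, and hepatocytes, which secrete most plasma proteins, rely on it heavily. It has 3 sensors in the ER membrane. PERK, the product of *Eif2ak3*, phosphorylates the translation factor eIF2, which lowers general protein synthesis but favours translation of *Atf4*. ATF4 then raises the transcription of *Ddit3* (CHOP), *Atf3*, *Trib3* and *Ppp1r15a*. IRE1, the product of *Ern1*, removes a short intron from *Xbp1* mRNA and so yields the active factor XBP1s, while ATF6 is cut in the Golgi to release its own transcription factor, as is CREB3L2, a relative of ATF6 of the OASIS family. ATF4 is also induced outside the ER by other eIF2 kinases, for example when amino acids are short. The counts measure RNA per gene and do not separate spliced from unspliced *Xbp1* mRNA. Phosphorylation, cleavage and protein were not measured here.

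The promoters of the 5 genes that passed the test between KO and WT cells are shown because the factors of this pathway act on one another's promoters. Each sequence is the 250 bases before the RefSeq start on GRCm38.p6, 5′ to 3′ on the gene's own strand, and capitals mark a match to the core of the CARE, the element bound by ATF4 with C/EBP proteins (TGATGNAA), or to the CRE, the palindrome bound by CREB and ATF proteins (TGACGTCA). The last line is a stretch of 30 bases downstream of the RefSeq start of *Trib3*. In the GENCODE annotation the 5′ end of *Trib3* on the minus strand is at 152344032, so the marked site lies upstream of that end.
Trib3, chr2:152344061-152344310, minus strand: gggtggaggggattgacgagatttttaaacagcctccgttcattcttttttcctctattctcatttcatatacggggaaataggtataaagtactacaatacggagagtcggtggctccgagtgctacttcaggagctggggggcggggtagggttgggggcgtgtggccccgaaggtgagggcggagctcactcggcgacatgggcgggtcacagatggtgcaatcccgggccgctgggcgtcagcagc
Ddit3, chr10:127290543-127290792, plus strand: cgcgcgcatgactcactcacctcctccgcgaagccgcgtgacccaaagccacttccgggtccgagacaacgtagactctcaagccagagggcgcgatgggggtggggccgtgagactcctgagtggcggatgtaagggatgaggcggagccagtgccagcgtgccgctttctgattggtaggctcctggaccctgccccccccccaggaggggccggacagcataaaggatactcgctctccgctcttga
Ppp1r15a, chr7:45526269-45526518, minus strand: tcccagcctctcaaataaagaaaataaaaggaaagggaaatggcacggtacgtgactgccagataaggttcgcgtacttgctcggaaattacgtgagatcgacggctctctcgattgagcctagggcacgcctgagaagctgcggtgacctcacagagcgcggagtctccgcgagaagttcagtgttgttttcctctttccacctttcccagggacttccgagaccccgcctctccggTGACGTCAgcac
Atf3, chr1:191183334-191183583, minus strand: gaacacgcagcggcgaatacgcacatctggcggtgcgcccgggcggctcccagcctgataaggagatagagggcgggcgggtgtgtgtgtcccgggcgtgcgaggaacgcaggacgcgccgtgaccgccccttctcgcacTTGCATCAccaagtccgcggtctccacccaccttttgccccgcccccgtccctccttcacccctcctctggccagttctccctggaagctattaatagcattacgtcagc
Xbp1, chr11:5520391-5520640, plus strand: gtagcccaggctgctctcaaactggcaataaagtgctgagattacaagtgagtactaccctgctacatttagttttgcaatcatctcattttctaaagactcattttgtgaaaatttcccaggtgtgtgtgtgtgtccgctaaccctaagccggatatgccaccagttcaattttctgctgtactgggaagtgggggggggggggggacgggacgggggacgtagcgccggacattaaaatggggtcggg
Trib3 site, chr2:152344028-152344057, minus strand: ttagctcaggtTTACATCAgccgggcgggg

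Windows from 250 bases before to 50 bases after the start were at hand for 9 of the 10 genes, the exception being *Atf6*. For *Atf3* the window lies inside the annotated gene, whose 5′ end on the minus strand is at 191218039, and no window at that end was searched. On both strands, the CARE core occurred in 2 of the 9, at -110 in *Atf3* and at +15 in *Trib3*, and in 3.97% of all 32851 windows. The CRE occurred in *Ppp1r15a* alone, at -12, and in 1.79% of all windows. The core of the UPRE bound by XBP1 and ATF6 (TGACGTGG) was in 0 of the 9 and 0.676% of all windows. The ERSE (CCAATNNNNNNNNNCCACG) and the ERSE-II (ATTGG and CCACG, 1 base apart), the elements of ATF6 with NF-Y, were in 0 of the 9, against 0.119% and 0.0365% of all windows. A plain CCAAT box, which lies within the ERSE, was in 5 of the 9 windows and 37.4% of all windows, with 6 copies in *Eif2ak3*. These matches describe letters in a short window and say nothing of which factor binds there.

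The 11 libraries held between 29840366 and 38422243 counts. One entry assembled without annotation took 11.3% to 17.1% of the counts in the WT libraries, 4.32% to 6.44% in the KO and 4.82% to 9.12% in the KI libraries, so levels are given as counts scaled to library size by the TMM method (CPM). When library totals were used for scaling instead, the median over all tested genes of the log2 fold change went from -0.03 to 0.38 in KO against WT cells, from -0.02 to 0.31 in KI against WT cells and from 0.00 to 0.06 in KO against KI cells, and the share of calls that were higher went from 48.45% to 72.77%, from 50.23% to 76.26% and from 49.95% to 56.12%. The targeted gene *Txndc5* had 10.2, 8.5, 12.9 and 9.39 CPM in the KO libraries, 147, 138 and 143 CPM in the WT libraries, and 158, 180, 176 and 163 CPM in the KI libraries. It was 14.1-fold lower in KO than in WT cells (edgeR quasi-likelihood test with Benjamini-Hochberg adjustment, adjusted p = 4.09e-08), whereas the 1.18-fold difference between KI and WT cells did not pass the test (edgeR adjusted p = 0.136), although the libraries did not overlap. Of 13 hepatocyte markers, 12 were above the floor of 3 counts, and *Apoa2* was at or near 0. Their summed level was 9830 to 11700 CPM in the KO, 7440 to 9490 in the WT and 8630 to 10200 in the KI libraries, with albumin (*Alb*) at 3590 to 4770, 373 to 739 and 160 to 302 CPM. Among them *Alb*, *Apoa1*, *Apob*, *Hnf4a* and *Foxa2* were higher in every KO than in every WT library, and *Trf*, *Ttr*, *Fgb* and *Serpina1a* were lower, with transferrin (*Trf*) at 1220 to 1450 CPM in the KO and 2320 to 4220 CPM in the WT libraries. Of 5 bile duct markers, 4 were above the floor and *Epcam* was at 0, and their sum was 1340 to 1500 CPM in the KO, 2970 to 4380 in the WT and 2600 to 3080 in the KI libraries. *Spp1* held most of the WT sum (211 to 282 CPM in the KO and 1950 to 3290 in the WT libraries), *Krt7* and *Sox9* were also lower in every KO than in every WT library, and *Krt19* was higher (1040 to 1180 against 653 to 862 CPM). Markers of leukocytes summed to at most 9.56 CPM and those of fibroblasts and endothelium to at most 1.69 CPM. The part that the differences in hepatocyte and bile duct genes have in the results below was not tested.

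In KO against WT cells, 3 of the 10 genes were higher (*Trib3*, *Ddit3* and *Ppp1r15a*), 2 were lower (*Xbp1* and *Atf3*) and 5 did not pass the test, at an adjusted p under 0.05. The same test called 55.1% of the 13359 genes tested, 26.7% as higher and 28.4% as lower, so 5 of 10 is close to the share of all genes. The median log2 fold change of the 10 genes was 0.27, against -0.03 over all genes. In KI against WT cells, 4 genes were lower (*Trib3*, *Xbp1*, *Atf3* and *Ppp1r15a*) and 0 were higher, where 42.3% of 13534 genes were called, 21.2% as higher and 21.0% as lower. The median of the 10 was -0.21, against -0.02 over all genes. These comparisons share the WT libraries, so their values for a gene are not independent of each other. The direct comparison of KO with KI cells had 5 genes higher in KO (*Trib3*, *Ddit3*, *Ppp1r15a*, *Atf4* and *Ern1*) and 0 lower, where 54.0% of 13269 genes were called, 27.0% in either direction, and a median of 0.35 against 0.00. In bulk RNA, a lower level per cell and a smaller share of cells that express the gene cannot be told apart.

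**Figure D1:**
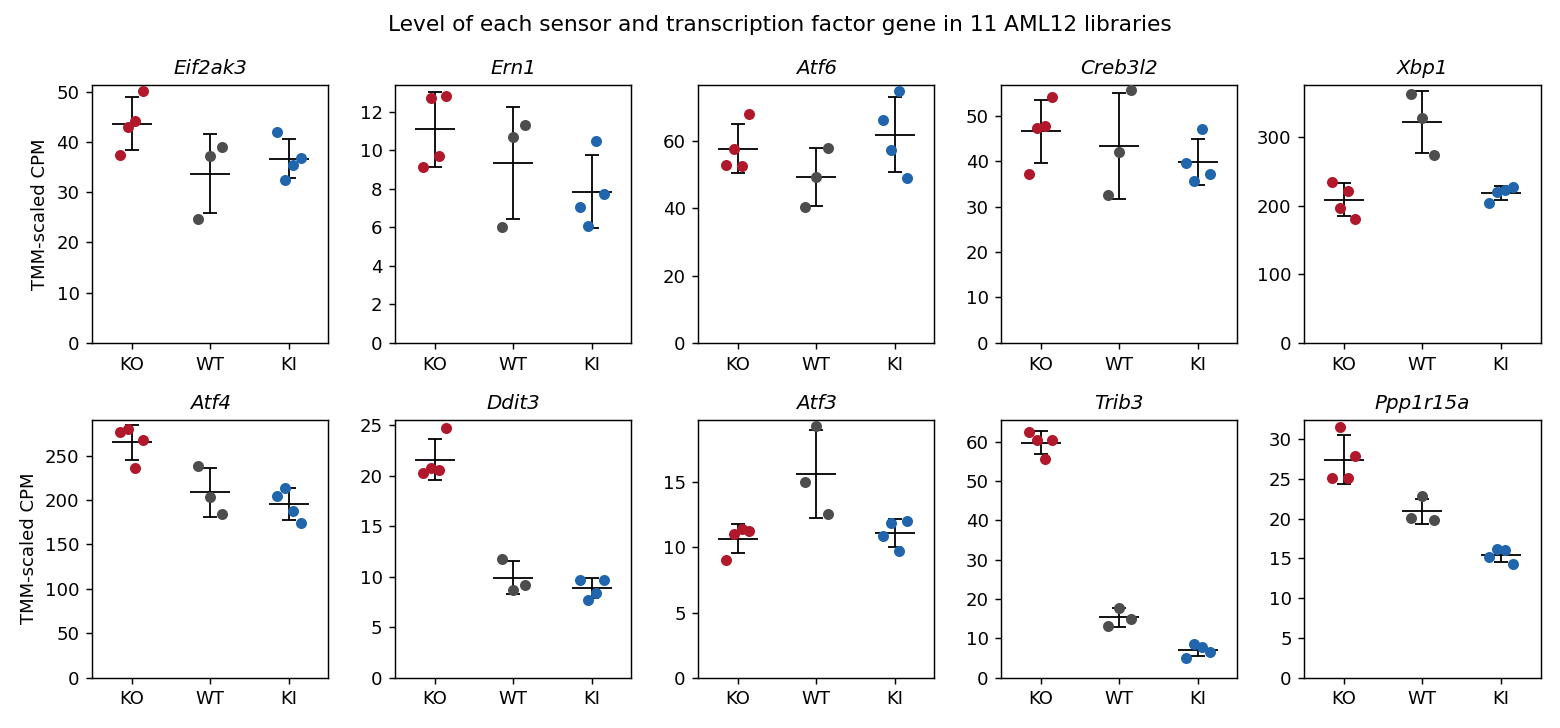
Level of each of the 10 genes in CPM (TMM-scaled) in the 4 KO, 3 WT and 4 KI libraries, with a panel and a scale starting at 0 for each gene. Points are libraries and the black bars are the mean and SD. *Trib3* has all 4 KO libraries at 55.6 CPM or above and all KI libraries at 8.68 or below, while the groups overlap for the 4 sensors.

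No sensor passed the test against WT at the main settings. *Eif2ak3*, which encodes PERK, had 37.4, 42.9, 44.2 and 50.1 CPM in the KO libraries, 24.7, 37.3 and 39.1 CPM in the WT libraries, and 41.9, 32.5, 35.5 and 36.8 CPM in the KI libraries. The lines overlapped, with the lowest value in WT 5-6. Its log2 fold change was 0.35 in KO against WT cells (95% interval -0.04 to 0.74, edgeR adjusted p = 0.114), and 0.12 in KI against WT cells (-0.26 to 0.50, edgeR adjusted p = 0.619). The KO against KI value was 0.26 (0.02 to 0.49, edgeR adjusted p = 0.0603). It passed the test in KO against WT cells without WT 8, at 0.50, and with library totals, at 0.75. In KO against KI cells it passed without KI 5 or KO 5, at 0.32 each, and with library totals, at 0.32.

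*Ern1*, which encodes IRE1, was the lowest of the 10 genes per length. It had 9.14, 12.7, 9.69 and 12.8 CPM in the KO libraries, 6.02, 10.7 and 11.3 CPM in the WT libraries, and 7.08, 6.09, 10.5 and 7.75 CPM in the KI libraries. All the lines overlapped. It did not pass the test against WT in either line (log2 fold change 0.22, 95% interval -0.29 to 0.74, for KO, and -0.26, -0.79 to 0.28, for KI). It was 1.42-fold higher in KO than in KI cells (log2 fold change 0.50, SE 0.18, edgeR adjusted p = 0.0292). That call was lost without KI 5 (0.45), KI 6 (0.39), KI 8 (0.49), KO 6 (0.43) or KO 8 (0.42), and with all 3 lines in a single fit (0.50).

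*Atf6* had 52.7, 57.7, 52.4 and 68.0 CPM in the KO libraries, 40.5, 49.4 and 57.9 CPM in the WT libraries, and 66.2, 57.2, 74.9 and 49.1 CPM in the KI libraries. The groups overlapped, and the log2 fold change was 0.21 in KO against WT cells (95% interval -0.13 to 0.54), 0.33 in KI against WT cells (-0.05 to 0.70) and -0.10 in KO against KI cells (-0.37 to 0.18). None of these passed the test (edgeR adjusted p = 0.273, 0.148 and 0.548). Without WT 8 it passed against WT in both lines, at 0.37 for KO and 0.46 for KI, and with library totals at 0.60 and 0.64.

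*Creb3l2*, the OASIS relative, had 37.2, 47.4, 47.7 and 54.1 CPM in the KO libraries, 32.5, 42.1 and 55.6 CPM in the WT libraries, and 39.7, 35.6, 47.0 and 37.2 CPM in the KI libraries. The WT libraries spanned the whole range of the other lines. Its log2 fold change was 0.08 in KO against WT cells (95% interval -0.33 to 0.50), -0.12 in KI against WT cells (-0.52 to 0.27) and 0.23 in KO against KI cells (-0.03 to 0.49), with no call. The KO against KI value passed the test without KI 7 or KO 5, at 0.32 each. WT 5-6, the library with the largest share of the unannotated entry, was the lowest WT library for all 4 sensors. KI 7, with the smallest share of the KI libraries, was the highest KI library for *Atf6*, *Ern1* and *Creb3l2*. For *Eif2ak3* the highest was KI 5, which had the largest share of the KI libraries. The KO libraries went the other way, as KO 5, with their smallest share (4.32%), was the lowest for *Eif2ak3*, *Ern1* and *Creb3l2*. The part of that entry in these levels was not tested.

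*Xbp1*, the target of IRE1 and the second most abundant of the 10 genes per length in the edited lines, was lower in both of them. It had 234, 197, 221 and 180 CPM in the KO libraries, 363, 327 and 274 CPM in the WT libraries, and 204, 220, 222 and 227 CPM in the KI libraries. Each WT library was above each KO and KI library, and the edited lines overlapped each other. The log2 fold change was -0.65 in KO against WT cells (SE 0.14, edgeR adjusted p = 0.00266), and -0.56 in KI against WT cells (SE 0.14, edgeR adjusted p = 0.00628). Both calls held in each fit that left out a library. Both were lost with library totals, at -0.22 and -0.21. The edited lines differed by a log2 fold change of -0.06 (95% interval -0.26 to 0.13, edgeR adjusted p = 0.582).

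*Atf4*, the factor whose translation PERK favours, was the most abundant of the 10 genes per length in KO and KI cells. It had 276, 280, 236 and 267 CPM in the KO libraries, 238, 203 and 184 CPM in the WT libraries, and 205, 214, 188 and 174 CPM in the KI libraries. KO overlapped WT only in that KO 7 was just under WT 5-6, and all KO libraries were above all KI libraries. It was 1.36-fold higher in KO than in KI cells (log2 fold change 0.44, SE 0.09, edgeR adjusted p = 0.000719). Against WT it missed the threshold in KO cells (log2 fold change 0.32, 95% interval 0.04 to 0.61, edgeR adjusted p = 0.0547) and was at -0.10 in KI cells (-0.40 to 0.21, edgeR adjusted p = 0.614). In KO against WT cells it passed with DESeq2 (0.30), with all 3 lines in a single fit (0.34), with library totals (0.75) and without WT 5-6 (0.45).

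*Ddit3* encodes CHOP, the factor linked to cell death under prolonged ER stress. It had 20.3, 20.8, 20.6 and 24.7 CPM in the KO libraries, 11.8, 8.72 and 9.21 CPM in the WT libraries, and 9.71, 7.66, 8.42 and 9.67 CPM in the KI libraries. The KO libraries stood clear of all others, while WT and KI overlapped. It was 2.15-fold higher in KO than in WT cells (log2 fold change 1.11, SE 0.16, edgeR adjusted p = 0.00017) and 2.44-fold higher in KO than in KI cells (1.29, SE 0.13, edgeR adjusted p = 6.2e-07). Its log2 fold change in KI against WT cells was -0.16 (95% interval -0.54 to 0.23, edgeR adjusted p = 0.494). The calls of the KO cells held under every alternative run.

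*Atf3*, a stress-induced factor downstream of ATF4, moved the other way. It had 9.06, 11, 11.4 and 11.3 CPM in the KO libraries, 15, 19.3 and 12.6 CPM in the WT libraries, and 10.9, 11.9, 9.72 and 12.0 CPM in the KI libraries. The WT libraries were above all others, with WT 7 the highest. The log2 fold change was -0.57 in KO against WT cells (SE 0.18, edgeR adjusted p = 0.0189), and -0.49 in KI against WT cells (SE 0.18, edgeR adjusted p = 0.0428). The KO call was lost without WT 7 (-0.36), without KO 5 (-0.50) and with library totals (-0.14). The KI call was lost with library totals (-0.15) and in 6 of the 7 fits that left out a library, which gave -0.62 to -0.31 over all 7, as well as with limma (-0.44) and with no filter on low counts (-0.48). The KO against KI value was -0.06 (95% interval -0.34 to 0.23).

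*Trib3*, a pseudokinase induced by ATF4 and CHOP that dampens ATF4 and AKT signalling, showed the widest separation of the 10 genes. It had 62.6, 60.4, 55.6 and 60.4 CPM in the KO libraries, 13.2, 17.8 and 15 CPM in the WT libraries, and 5.09, 8.68, 7.87 and 6.45 CPM in the KI libraries. The lines did not overlap, in the order KO, WT, KI. It was 3.84-fold higher in KO than in WT cells (log2 fold change 1.94, SE 0.15, edgeR adjusted p = 2.2e-06) and 2.18-fold lower in KI than in WT cells (-1.13, SE 0.21, edgeR adjusted p = 0.000939). Between KO and KI cells the difference was 8.52-fold (log2 fold change 3.09, SE 0.14, edgeR adjusted p = 1.67e-10). All 3 calls held under every alternative run, with 1.87 to 2.09, -1.25 to -1.0 and 2.96 to 3.21 in the fits that left out a library.

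*Ppp1r15a* encodes GADD34, which brings protein phosphatase 1 to eIF2 and so reverses the block of PERK. It had 25.1, 31.6, 25.1 and 27.9 CPM in the KO libraries, 20.1, 22.8 and 19.9 CPM in the WT libraries, and 15.2, 16.2, 16.1 and 14.3 CPM in the KI libraries. The lines did not overlap and stood in the same order as for *Trib3*, at narrower distances. It was 1.78-fold higher in KO than in KI cells (log2 fold change 0.83, SE 0.11, edgeR adjusted p = 1.67e-05), which held under every alternative run. The rise in KO against WT cells was smaller (0.37, SE 0.14, edgeR adjusted p = 0.0438). It was lost without KO 6 (0.29), KO 7 (0.41), KO 8 (0.36) or WT 5-6 (0.36), with the RLE size factors in place of TMM (0.35), with no filter on low counts (0.38) and with each table entry on its own (0.36). With library totals it was 0.79 and passed. The fall in KI against WT cells (-0.44, SE 0.14, edgeR adjusted p = 0.0258) was lost without KI 5 (-0.43), KI 8 (-0.40) or WT 7 (-0.37), and with library totals (-0.11).

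**Figure D2:**
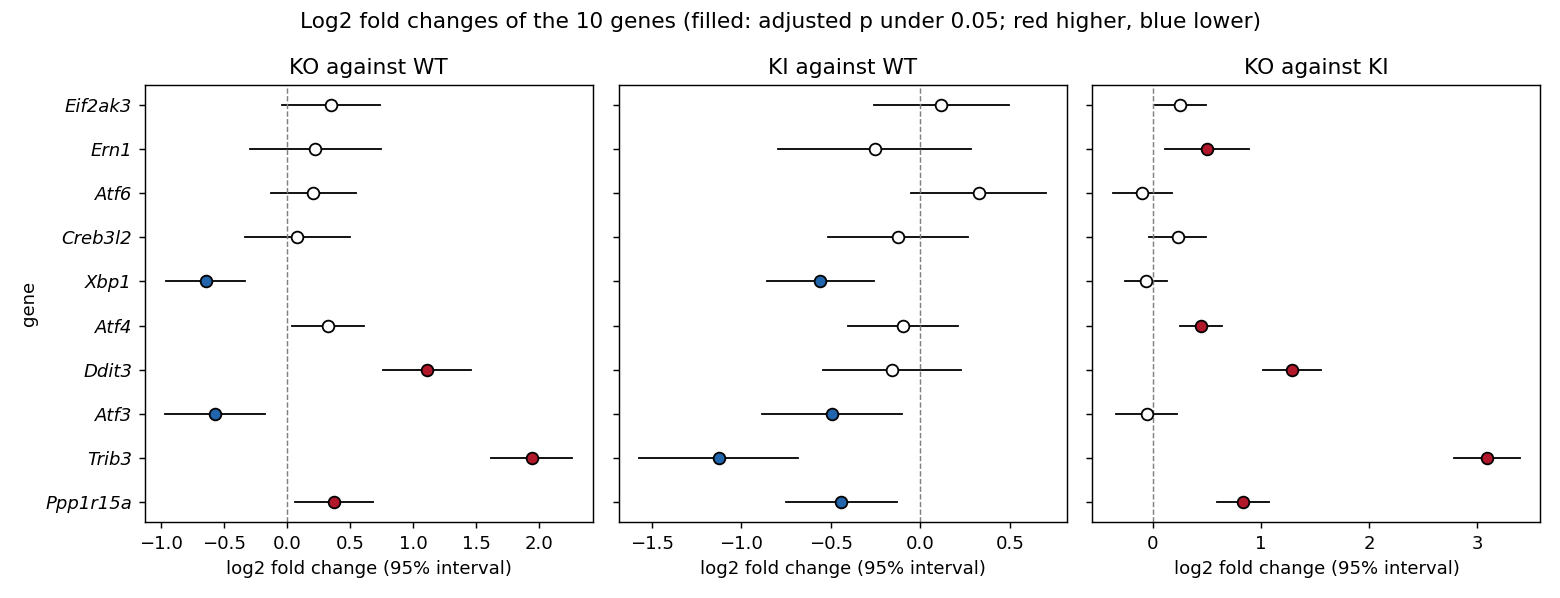
Log2 fold changes of the 10 genes in KO against WT, KI against WT and KO against KI cells, with 95% intervals from edgeR's fit and a separate scale for each comparison. Filled points passed the test at an adjusted p under 0.05 (red higher, blue lower in the first line named). *Trib3* is farthest from 0 in each comparison, while the intervals of *Atf6* and *Creb3l2* include 0 in all 3.

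Per length of the annotated exons (CPM per kb), the order of the levels changed between lines. In WT cells *Xbp1* (98.9) and *Atf4* (88.4) led, followed at a distance by *Atf3* (7.26), *Trib3* (7.21) and *Ppp1r15a* (7.12), and then by *Creb3l2* (5.96), *Ddit3* (5.79), *Eif2ak3* (5.6), *Atf6* (5.34) and *Ern1* (1.14). In KO cells *Atf4* (112) was ahead of *Xbp1* (64.1), and *Trib3* (28.1), *Ddit3* (12.6), *Ppp1r15a* (9.33), *Eif2ak3* (7.25), *Creb3l2* (6.4), *Atf6* (6.25), *Atf3* (4.96) and *Ern1* (1.36) followed. In KI cells *Atf4* (82.7) and *Xbp1* (67.2) again led, *Atf6* (6.7), *Eif2ak3* (6.09), *Creb3l2* (5.47), *Ppp1r15a* (5.25), *Ddit3* (5.17) and *Atf3* (5.17) lay close together, and *Trib3* (3.3) was the lowest but for *Ern1* (0.961). The genes from *Atf3* to *Atf6* in the WT order had coefficients of variation of 7.62% (*Ppp1r15a*) to 26.7% (*Creb3l2*) over the 3 WT libraries. The order of neighbours among them, and that of *Xbp1* and *Atf4* at the top, was not tested within libraries.

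The scaling decides some of these calls. With library totals, the log2 fold changes of all 10 genes against WT rose, *Trib3*, *Ddit3* and *Ppp1r15a* stayed higher in KO cells and *Trib3* stayed lower in KI cells. *Xbp1* and *Atf3* did not pass the test in either line, while *Atf4*, *Atf6* and *Eif2ak3* passed it as higher in KO cells and *Atf6* in KI cells. That makes 6 higher and 0 lower in KO against WT cells, and 1 higher and 1 lower in KI against WT cells. On that scale the log2 fold change in KO against WT cells was 0.75 for *Atf4* and -0.22 for *Xbp1*, and 0.37 and -0.60 relative to the median of all genes (0.38).

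**Figure D3:**
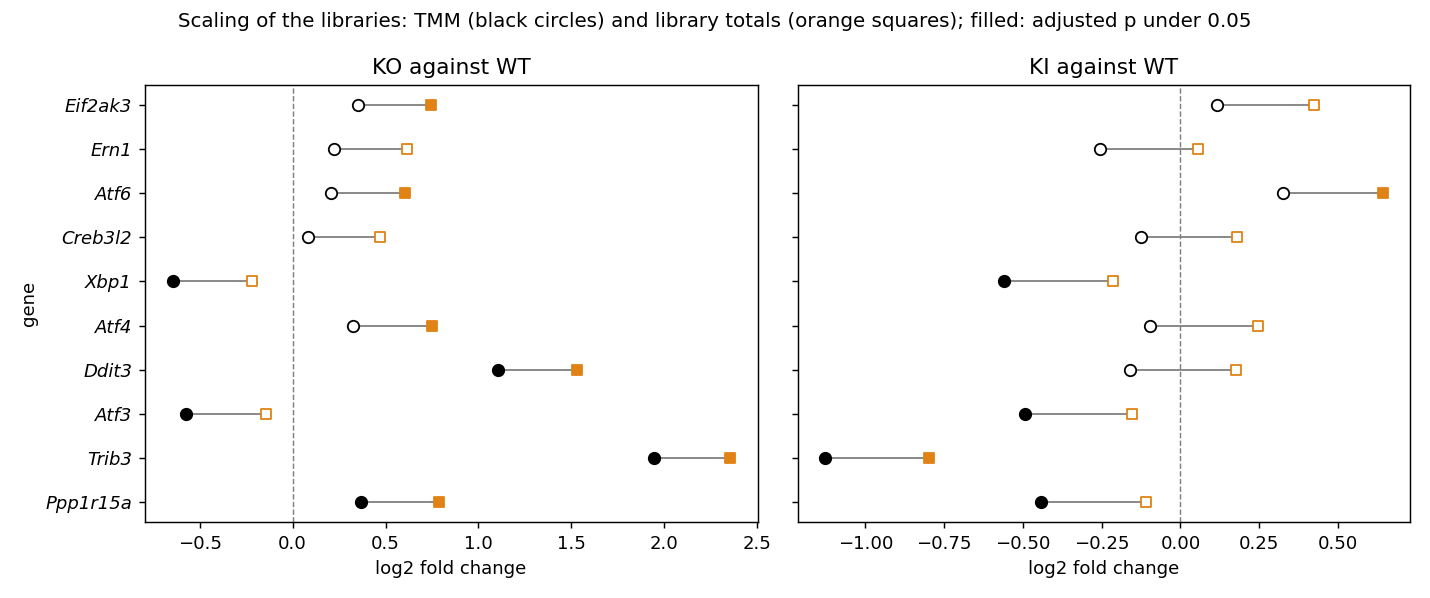
Log2 fold changes of the 10 genes against WT with the libraries scaled by TMM (black circles) and by library totals (orange squares), in KO cells on the left and KI cells on the right. Filled symbols passed the test at an adjusted p under 0.05. All points move to the right with library totals, and *Xbp1* goes from -0.65 to -0.22 in KO cells.

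Genes beside a member on the chromosome were compared with it as well, a view added after the data were seen. The 40 nearest tested genes of *Trib3* on chromosome 2 had a median log2 fold change of 0.41 in KO against WT cells, and 1 of the 40 was above *Trib3* itself. For *Ddit3* on chromosome 10 the median was 0.30, with 9 of 40 above it. *Ppp1r15a*, at 0.37, lay at the median of its neighbours on chromosome 7 (0.38, with 20 of 40 above it), and *Atf4*, at 0.32, at that of its neighbours on chromosome 15 (0.33, 20 of 40). *Xbp1*, at -0.65, lay below the median of its neighbours on chromosome 11 (-0.21, 31 of 40 above it), and in KI against WT cells its neighbours had a median of 0.41, with 39 of 40 above it. *Trib3* in KI against WT cells had 36 of 40 neighbours above it. The part of chromosome content in these values was not tested.

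The other genes of the pathway were grouped in 9 lists by role, and some genes stand in more than 1 list (*Atf5*, *Dnajc3*, *Edem1* and *Fos* among those named). For reading the counts, the test called 26.7% of all genes as higher and 28.4% as lower in KO against WT cells, 21.2% and 21.0% in KI against WT cells, and 27.0% each way in KO against KI cells. Most of the ATF6 targets, which are largely chaperones and folding enzymes of the ER, were higher in KO cells. Of 15 tested, 13 (86.7%) rose and 0 fell against WT, with a median of 0.83 against -0.03 for all genes, and fits that left out a library called 12 to 13. *Creld2*, an ER chaperone-like protein, was at 1.26, *Hyou1*, a large chaperone of the ER, at 1.24, and *Sdf2l1*, a cofactor of BiP, at 1.21. *Hspa5*, which encodes BiP itself, had 3060, 2680, 2650 and 2390 CPM in the KO libraries, 2020, 1790 and 1410 CPM in the WT libraries, and 1060, 998, 899 and 1170 CPM in the KI libraries, with no overlap between lines. In the KI cells 1 of the 15 rose against WT (*Hyou1*, 0.48) and 5 fell, among them *Dnajc3* (-0.80), which encodes an inhibitor of PERK, *Hspa5* (-0.76) and *Hsp90b1* (-0.70), with a median of -0.12 against -0.02. Directly compared, 14 of the 15 were higher in KO than in KI cells and 0 lower, with a median of 1.02. With library totals, 15 of the 15 were higher in KO than in WT cells, and 2 were higher and 3 lower in KI than in WT cells.

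Among 37 tested targets of ATF4 and CHOP, 22 (59.5%) were higher in KO than in WT cells, 5 (13.5%) were lower and 10 did not pass the test, where 26.7% of all genes were higher and 28.4% lower, with a median of 0.72 against -0.03. The largest rises were those of *Atf5* (3.43), itself a stress factor translated like *Atf4*, *Cth* (2.42), an enzyme that makes cysteine, and *Slc7a5* (2.41), a transporter of large neutral amino acids. *Atf5* had 307, 338, 270 and 319 CPM in the KO libraries, 30.4, 24.9 and 29.5 CPM in the WT libraries, and 53.2, 59.8, 46.9 and 54.5 CPM in the KI libraries. The falls included *Ero1a* (-2.38), the oxidase that recharges protein disulfide isomerases, *Vldlr* (-1.45), a lipoprotein receptor, and *Stc2*, a secreted glycoprotein, with 7, 4, 0 and 0 counts in the KO libraries against 188, 327 and 282 in the WT libraries. *Stc2* passed the filter on low counts through the WT libraries alone, so it could only come out as lower.

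Of these 37 targets, 12 rose in KI against WT cells and 7 fell, with a median of 0.08 against -0.02. The serine and folate enzymes *Phgdh* (1.14) and *Mthfd2* (0.97) rose with *Aars* (1.06), the alanyl-tRNA synthetase. *Ero1a* (-2.0), the mitochondrial folate enzyme *Aldh1l2* (-1.96) and the proline enzyme *Pycr1* (-1.27) fell. Of the 37, 21 were higher and 6 lower in KO than in KI cells, with a median of 0.83. *Stc2*, among the 6, passed the filter there through the KI libraries alone and could only come out as lower. *Aldh1l2* had 30.2 to 36.3 CPM in the KO, 7.58 to 10.7 in the WT and 1.49 to 3.83 in the KI libraries, the same order of lines as *Trib3*. With library totals 19 of the 37 were higher and 5 lower in KI against WT cells.

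The XBP1 targets, which serve translocation, transport and degradation, split in both lines. Of 22 tested, 10 (45.5%) rose and 7 (31.8%) fell in KO against WT cells, with a median of 0.26. *Sec24d*, a COPII coat protein, was at 1.81, *Dnajb11*, a co-chaperone of BiP, at 1.09 and *Edem1*, of ER-associated degradation, at 0.79. *Sec61g*, a translocon subunit, was at -1.33 and *Hspa13* at -0.75. *Ckap4*, a protein of ER sheets, was at 0 counts in all 4 KO libraries against 25, 46 and 48 in the WT libraries, at least 18.8-fold lower with the floor of 3 counts per library. It passed the filter on low counts through the WT libraries alone, so it could only come out as lower. The KI cells had 4 higher than WT, among them *Srprb* (0.80), *Sec24d* (0.71) and *Srpr* (0.62), the last and the first for the signal recognition particle receptor. A further 8 fell, among them *Hspa13* (-1.36) and *Serp1* (-0.89), and the median was -0.26. Between KO and KI cells 12 of 21 were higher in KO and 3 lower, with a median of 0.38. With library totals the counts were 14 higher and 2 lower in KO against WT cells and 7 higher and 6 lower in KI against WT cells, and the KO against KI comparison had 12 higher and 1 lower.

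**Figure D4:**
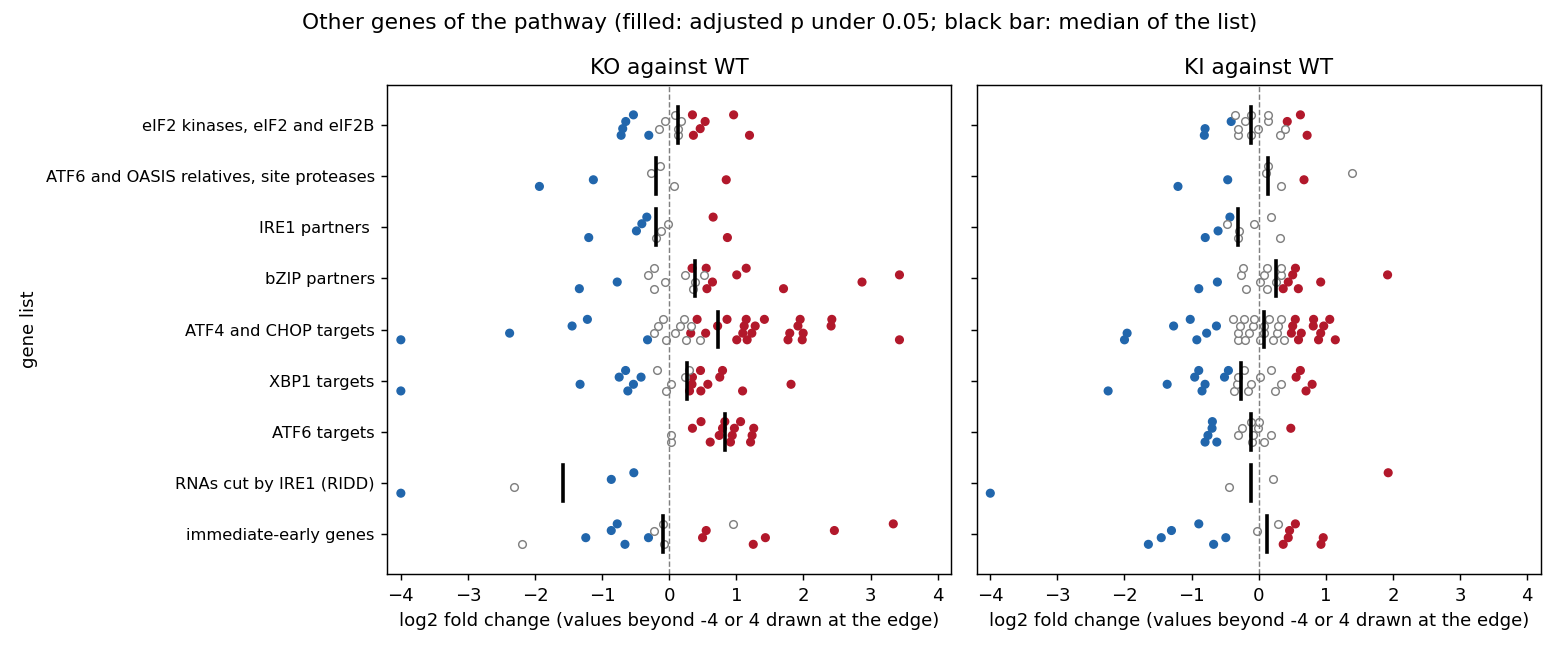
Log2 fold changes of the genes in the 9 lists in KO against WT (left) and KI against WT cells (right), from edgeR's fit, with values beyond -4 or 4 drawn at the edge. Each point is a gene, filled if it passed the test at an adjusted p under 0.05, and the black bars are medians. The ATF6 targets have 13 of 15 filled on the right of 0 in KO cells, and 1 on the right and 5 on the left in KI cells.

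Around the PERK arm, 17 genes of the eIF2 kinases, eIF2, its exchange factor eIF2B and the phosphatase were tested. In KO against WT cells 6 (35.3%) rose and 5 (29.4%) fell, near the 26.7% and 28.4% of all genes, with a median of 0.14. Fits that left out a library called 5 to 11 of them, with 7 or fewer without KO 6, KO 7, KO 8, WT 5-6 or WT 7. The eIF2B subunits *Eif2b5* (1.20) and *Eif2b4* (0.96) rose with *Eif2ak4* (0.53), the kinase GCN2 that senses uncharged tRNA. The phosphatase subunits *Ppp1cb* (-0.72) and *Ppp1cc* (-0.65) and the eIF2 subunit *Eif2s1* (-0.69) fell. The KI cells had 3 higher than WT, namely *Eif2b5* (0.72), *Eif2b4* (0.62) and *Eif2b3* (0.43), and 3 lower, *Eif2s2* (-0.81), *Dnajc3* (-0.80) and *Ppp1cc* (-0.41), and the 6 calls became 3 without WT 7 or KI 6 and 10 without WT 8. In KO against KI cells 9 were higher and 4 lower. With library totals 10 were higher and 0 lower in KO against WT cells, and 6 higher and 2 lower in KI against WT cells.

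Around IRE1, 9 partners and processing genes were tested. In KO against WT cells 2 rose, *Traf2* (0.87) and *Map3k5* (0.65), which link IRE1 to JNK signalling, and 4 fell, among them *Mapk8* (-1.20), which encodes JNK1, *Ufl1* (-0.41) and *Ptpn1* (-0.33). The 6 calls became 3 without KO 6, KO 8 or WT 7. Against WT, 0 rose and 3 fell in KI cells, among them *Ufl1* (-0.80) and *Ptpn1* (-0.43), and these calls numbered 1 without KI 7 and 5 without WT 8 or KI 8. Of the 9, 4 were higher and 1 lower in KO than in KI cells. With library totals 2 were higher and 1 lower in KO against WT cells, and 1 each in KI against WT cells. Of the RNAs that IRE1 is known to degrade, 4 were tested, and 3 were lower and 0 higher in KO against WT cells. Over all genes, 28.4% were lower and 26.7% higher. *Scara3* was at 0 counts in all KO libraries against 188, 140 and 261 in the WT libraries, at least 93.5-fold lower, and *Hgsnat* was at -0.53. *Scara3* passed the filter on low counts through the WT libraries alone, so it could only come out as lower. The libraries of the other gene that fell overlapped between the lines. Against WT, *Col6a1* rose in KI cells (1.93) and *Scara3* fell (-4.04). In KO against KI cells 3 of 3 tested were lower, where 27.0% of all genes were lower. *Scara3* was not tested there. *Col6a1*, with 0, 16, 11 and 0 counts in the KO libraries, passed the filter there through the KI libraries. With library totals 0 were higher and 1 lower in KO against WT cells.

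Around ATF6, 6 relatives and Golgi site proteases were tested in KO against WT cells. *Atf6b*, the close relative of *Atf6*, rose (0.85), and *Creb3l1* (-1.94) and the liver factor *Creb3l3* (-1.13) fell. The KI cells had 1 of 7 higher than WT (*Atf6b*, 0.68) and 2 lower, *Creb3l3* among them (-1.20). *Creb3l1* had 2.69, 2.1, 3.18 and 2.78 CPM in the KO libraries, 9.63, 8.11 and 12.7 CPM in the WT libraries, and 10.1, 10.8, 12.0 and 10.9 CPM in the KI libraries, so that the KO libraries were apart and WT and KI overlapped. Directly compared, 2 of 7 were lower in KO than in KI cells and 0 higher, with 1 call without KO 6 and 4 without KO 8. With library totals 3 were higher and 1 lower in KI against WT cells, and 2 higher and 1 lower in KO against KI cells.

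Among 19 bZIP factors that pair with ATF4, CHOP or ATF3, 9 (47.4%) rose and 2 (10.5%) fell in KO against WT cells, with a median of 0.38. Beside *Atf5*, the AP-1 member *Fosl1* (2.87) and the hepatocyte factor *Cebpa* (1.70) rose, and *Crem* (-1.34) and *Fos* (-0.78) fell. In KI against WT cells 7 rose, among them *Fosl1* (1.92), *Atf5* (0.92) and *Fosl2* (0.59), and 2 fell, *Fos* among them (-0.89), and the 9 calls became 4 without WT 7 and 5 without KI 5. Between KO and KI cells 10 were higher in KO and 3 lower. With library totals 14 were higher and 1 lower in KO against WT cells, and 11 higher and 0 lower in KI against WT cells.

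The immediate-early genes, which share inducers with *Atf3* and *Ppp1r15a*, went both ways in KO against WT cells. Of 16 tested, 6 (37.5%) rose and 5 (31.2%) fell, near the 26.7% and 28.4% of all genes. *Klf4* (2.46), *Zfp36* (1.43) and *Dusp1* (1.25) rose, while *Egr1* (-1.24), *Ier3* (-0.86) and *Fos* (-0.78) fell. In KI against WT cells 6 of 14 rose, among them *Ier3* (0.96), *Nr4a1* (0.93) and *Btg2* (0.55), and 6 fell, among them *Dusp1* (-1.45), *Egr1* (-1.30) and *Fos* (-0.89), and the 12 calls became 7 without WT 7 or KI 7. Between KO and KI cells 4 of 15 were higher in KO and 5 lower. With library totals 6 were higher and 2 lower in KO against WT cells, and 7 higher and 2 lower in KI against WT cells.

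The genes most like each member over the 11 libraries were found by the root mean square difference of log2(CPM + 0.5), each centred on its own mean, among 10457 genes. Nearest to *Trib3* were *Psmb8* (0.186), *Oas3* (0.236) and *Klf4* (0.262), and nearest to *Ddit3* were *Matn2* (0.145) and *Bbc3* (0.153). *Xbp1* had nearer neighbours, *Zfp1* (0.0521), *Saraf* (0.0734) and *Rnf128* (0.0744). Further pairs of a member and its nearest gene were *Atf6* with *Ap1g1* (0.0742), *Atf4* with *Nosip* (0.0853), *Ppp1r15a* with *Pspc1* (0.0945), *Eif2ak3* with *Abl1* (0.106), *Atf3* with *Dennd6b* (0.116) and *Ern1* with *Il6st* (0.132). Of the pairs given, that of *Trib3* was the loosest. The libraries share depth and scaling, and the measure is a description of these 11 points.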

How the data were processed

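Polyadenylated RNA of 4 KO, 3 WT and 4 KI libraries of AML12 cells was sequenced by a commercial provider. The authors deposited read counts per gene without normalization. Per the labels, HISAT2, TopHat2, Bowtie2 and StringTie were used, with roles and versions not given, and the genome build is not given in the sources used here. The kit is not described as marking strand. Of 26472 lines, 10 with broken annotation fields were left out and 26462 used, of which 2960 were newly assembled, and counts were added up over entries of one gene name. The table also holds FPKM columns and the authors' own fold changes and p-values, which were not used here.

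Genes with low counts were removed with filterByExpr, and the libraries were scaled by TMM. The quasi-likelihood test of edgeR was used (edgeR 4.0.16, R 4.3.3, robust, libraries of the compared lines only), with Benjamini-Hochberg adjustment over all genes tested. An adjusted p under 0.05 was a call. CPM came from 1 TMM scaling of all 11 libraries. A floor of 3 counts per library, which covers counting error only, was used for genes at 0. Promoters are from RefSeq and exon lengths from GENCODE, both on GRCm38. The fitting script was tested on simulated data. Alternatives were DESeq2 1.42.0, limma 3.58.1 on log2(CPM + 1), other scalings, no filter, single table entries, all lines in 1 fit, a replicate block, and leaving out libraries or the 2 largest unannotated entries. Figures were drawn with Python 3.11.15 and matplotlib 3.10.9.

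The members and the lists were chosen with earlier results of these data known. Named were the 10 genes and *Txndc5*, and from each list up to 3 called genes with the largest rise and up to 3 with the largest fall in each line against WT, with no overlap of libraries. For likeness, the 3 nearest genes with a mean of at least 2 log2 CPM were taken, and up to 3 of them are named. Results for some genes are not reported here.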

Additional observations from a re-analysis of the deposited data

Results flagged for a closer look

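In 8 of 136 groups of 4 libraries, the distance of 1 library to the nearest of the others took up more of the group's range than Dixon's 95% limit for 4 values. Chance gives about 6.8 such groups, 1 in 20. Among the 10 genes, *Ddit3* stood at 24.7 CPM in KO 8 against 20.3 to 20.8 in the other KO libraries (ratio 0.889), and *Atf3* at 9.06 CPM in KO 5 against 11 to 11.4 (ratio 0.833). Of the other named genes in KO cells, *Crem* was at 7.78 CPM in KO 8 against 11.7 to 12.0 (ratio 0.928) and *Hgsnat* at 41.7 CPM in KO 5 against 33.0 to 34.4 (ratio 0.843). In KI cells, *Aars* was at 147 CPM in KI 8 against 207 to 214 (ratio 0.896), *Hspa13* at 63.6 CPM in KI 8 against 44.1 to 44.6 (ratio 0.973), *Klf4* at 2.88 CPM in KI 5 against 3.62 to 3.67 (ratio 0.939), and *Dnajc3* at 122 CPM in KI 6 against 126 in the others (ratio 0.93).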

How the results depend on the processing

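*Trib3* in all 3 comparisons, *Ddit3* in KO against WT and KO against KI cells, and *Atf4* and *Ppp1r15a* in KO against KI cells kept direction and call under every alternative run. Leaving out each library in turn gave 4 to 7 called members in KO against WT cells, 2 to 5 in KI against WT cells and 4 to 7 in KO against KI cells. In KI against WT cells the number was 2 of 4 with library totals, and 2 without WT 7, KI 5 or KI 8. With library totals the sign turned in KI against WT cells for *Atf4* (0.24), *Ddit3* (0.18), *Ern1* (0.057) and *Creb3l2* (0.18), and in KO against KI cells for *Atf3* (0.012), none of them called. Leaving out a library turned the sign for *Creb3l2* in KO against WT cells (-0.066 to 0.33), for *Atf4* (-0.18 to 0.012), *Eif2ak3* (-0.058 to 0.24) and *Creb3l2* (-0.29 to 0.10) in KI against WT cells, and for *Atf3* (-0.11 to 0.010) and *Atf6* (-0.20 to 0.013) in KO against KI cells. The cause was not tested.

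The replicate numbers gave no uniform pairing of the libraries. For each of 13948 genes, the mean of a line in log2 CPM was subtracted from its libraries, and the remaining deviations were correlated between libraries of different lines. These correlations were -0.19 to 0.21 for same-numbered libraries, with WT 5-6 left out of these pairs. KO 8 correlated best with WT 8 (0.214) and KO 5 with WT 5-6 (0.163). The value was -0.0163 for KO 6 with WT 5-6 and -0.19 for WT 8 with KI 8. Libraries did not always correlate best with their own number. With a replicate block and all 3 lines in 1 fit, 3 members were called in KO against WT cells in place of 5, without *Atf3* and *Ppp1r15a*, 3 in KI against WT cells in place of 4, without *Atf3*, and 4 in KO against KI cells in place of 5, without *Ern1*. WT 5-6 was the only library of its block, so the comparisons against WT rested on WT 7 and WT 8 alone. In them, the part of the block and that of losing this library cannot be told apart. The sign turned for *Ddit3* (0.029) and *Eif2ak3* (-0.012) in KI against WT cells. Without WT 5-6 and with no block, it turned for *Eif2ak3* (-0.058) but not for *Ddit3*. With the block the KO against WT calls were 10 of the XBP1 targets in place of 17, 5 of the eIF2 list in place of 11 and 3 of the IRE1 list in place of 6. Among the counts for the lists under alternatives, 32 moved by over 1.5 times and 382 did not. With 3 WT libraries, the intervals of the sensors against WT were wide. That of *Ern1* ran from -0.29 to 0.74 in KO cells and from -0.79 to 0.28 in KI cells.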
